A study of Rattus norvegicus with 4 samples.

Results

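The genes described are the Toll-like receptors Tlr1, Tlr2, Tlr3, Tlr4, Tlr6, Tlr7 and Tlr8, the co-receptors Cd14 and Ly96, and the adaptor Myd88. They were chosen by name, as rows of the expression table to which the platform annotation gave exactly 1 gene symbol, and the annotation named such a row for 8 of the 10. Tlr1 and Tlr8 were not analysed here, because no row carried their symbols. Each of the 8 measured genes had 1 row, among 14506 genes named in this way and 29214 rows in all. The samples were obese WNIN/Ob rats (n = 2) and lean WNIN/Ob rats (n = 2), from a strain in which obesity is inherited. All 4 were males 4 months old, fed stock diet and given no treatment, and the labels give their phenotype but no genotype. Retroperitoneal fat, a visceral depot, was taken from each rat, and its RNA was hybridised to 1 Affymetrix Rat Gene ST array per rat. Values are log2 intensities, and differences are obese minus lean on the log2 scale. Precision is limited by the number of arrays.

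Toll-like receptors are membrane proteins of innate immunity that recognise microbial molecules and some products of damaged cells. Tlr1, Tlr2, Tlr4 and Tlr6 act at the cell surface on lipopeptides or lipopolysaccharide, whereas Tlr3, Tlr7 and Tlr8 read RNA from within endosomes. Lipopolysaccharide is passed by Cd14 to Ly96 (MD-2), the small secreted protein that holds it in a complex with Tlr4. Most receptors of the family signal through the adaptor Myd88 to NF-kB, and Tlr3 uses the adaptor Ticam1 instead. These roles are known mainly from mouse and human cells. In fat the receptors are known from macrophages and, for Tlr4 and Tlr3 among others, also from adipocytes and their precursors.

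Ly96 was the only measured member that passed the test across all genes, and it rose 2.47-fold in obese fat (1.30 ± 0.22 on the log2 scale, SE, n = 2 per group, limma adjusted p = 0.048). Its values in both lean rats were under the background level described below, and the call was lost with quantile normalization between arrays. The largest difference of the 8 was in Tlr3, at 1.67 ± 0.39 or 3.18-fold, but it did not pass (adjusted p = 0.110). The receptors Tlr2, Tlr4 and Tlr6 and the adaptor Myd88 lay between 0.39 and 0.48, Tlr7 at 0.66 and Cd14 at 0.15, none of them past the threshold. Outside the members, the receptor Cd180 and its partner Ly86, the receptor-trafficking protein gene Unc93b1 and the kinase gene Btk rose. The calls of Ly86 and Unc93b1 were lost with quantile normalization. Of 20 genes that the pathway induces, among them Tnf, Il1b and Il6, none passed. Il6 was under the background level in all rats and Il1b in both lean rats, so a difference in them could be missed.

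Signal was low for several members, and lean rat 1 stood apart from the other animals, so both are given before the results. The median intensity over all rows was 39.9 in both obese rats, 41.0 in lean rat 1 and 44.5 in lean rat 2. As a measure of background, 188 olfactory and vomeronasal receptor genes, which are taken to be mostly silent in fat, had a 95th percentile of 4.48 and 4.55 in the obese rats, against 4.68 and 5.24 in the lean rats. Skeletal muscle genes were high in lean rat 1: the median of 9 such genes was 5.64 and 5.23 in obese rats 1 and 2, against 11.97 in lean rat 1 and 5.53 in lean rat 2. Differences without lean rat 1 are given beside some genes, and for some lists the median without it is given. With 1 rat left out, 1 group holds a single rat and the spread comes from the other group alone. Calls from such fits are therefore not used, and only differences are given. Adipocyte genes, which check the labelled tissue, had list medians of 10.11 and 10.34 in the obese rats, against 9.73 and 10.04 in the lean rats. No exact two-sided permutation p can be smaller than 0.333 with groups of 2, and the calls therefore depend on limma's pooling of the spread over genes.

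The promoters of 9 of the 10 genes were held by the RefSeq table of the GRCr8 assembly, each as 300 bases from 250 before to 50 after the start site that the table uses, and Ly96 had none there. That site is the outer end of the gene in the RefSeq gene table for 4 of the 9 (Tlr3, Tlr4, Tlr6 and Myd88). It lies inside the gene by 274 bases for Tlr2, 251 for Cd14, 102 for Tlr7, 12 for Tlr8 and 10060 for Tlr1. Shown are Tlr3, the member with the largest difference, and Tlr2 and Myd88, which held matches to motifs of the NF-kB and interferon-response kind. Capitals mark every match on either strand to GAGGAA (the core of PU.1 sites, a factor of myeloid cells), to GAAA followed by any 2 bases and a second GAAA (the core of the interferon-stimulated response element), to the NF-kB consensus or to TATAAA.
Tlr3, chr16:53554666-53554965, plus strand of GRCr8: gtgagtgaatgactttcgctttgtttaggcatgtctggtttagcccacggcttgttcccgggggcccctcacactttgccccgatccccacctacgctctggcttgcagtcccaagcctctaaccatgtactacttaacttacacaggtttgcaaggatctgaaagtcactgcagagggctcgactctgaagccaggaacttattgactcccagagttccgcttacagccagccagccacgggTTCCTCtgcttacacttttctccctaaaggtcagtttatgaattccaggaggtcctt
Tlr2, chr2:171504508-171504807, minus strand of GRCr8: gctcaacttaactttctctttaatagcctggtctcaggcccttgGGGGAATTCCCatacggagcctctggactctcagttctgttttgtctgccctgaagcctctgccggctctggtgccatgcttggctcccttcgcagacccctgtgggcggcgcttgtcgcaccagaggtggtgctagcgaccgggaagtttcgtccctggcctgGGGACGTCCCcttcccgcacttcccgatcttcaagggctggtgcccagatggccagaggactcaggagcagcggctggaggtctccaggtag
Myd88, chr8:127956181-127956480, minus strand of GRCr8: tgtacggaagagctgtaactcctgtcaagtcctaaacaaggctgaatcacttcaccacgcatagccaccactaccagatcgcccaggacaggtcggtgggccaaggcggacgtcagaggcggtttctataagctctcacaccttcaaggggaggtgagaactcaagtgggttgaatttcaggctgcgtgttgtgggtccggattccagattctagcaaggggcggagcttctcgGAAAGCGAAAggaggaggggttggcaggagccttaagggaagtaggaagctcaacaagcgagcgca
In these windows GAGGAA occurred in 6 of the 9 members, among them Tlr3 at position -7 from that site, against 27.6% of 33469 promoters of the same length. The NF-kB consensus occurred in 1 member, Tlr2, against 7.51% of all promoters, with 5 overlapping matches counted over both strands, which form the 2 capital stretches of its sequence. The interferon-response core occurred in 1 member, Myd88, at position -16, against 3.92% of all promoters, and TATAAA in 2 members, against 14.2%. A match describes the letters of the window and does not show that a factor binds there.

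Tlr2 forms heterodimers with Tlr1 or Tlr6 that recognise bacterial lipopeptides. Tlr2 was at 5.49 and 5.53 in the obese rats, against 4.92 and 5.14 in the lean rats. The groups did not overlap, but lean rat 2 was under the background level of its array. The difference was 0.48 ± 0.23 and did not pass (limma adjusted p = 0.361). Its dimer partner Tlr6 was at 5.92 and 5.96 in the obese rats, against 5.62 and 5.44 in the lean rats. The groups again did not overlap, and the difference was 0.41 ± 0.24 (adjusted p = 0.446). Within each array, Tlr6 minus Tlr2 averaged 0.43 in obese rats and 0.50 in lean rats, a difference of -0.07, or -0.02 with Tlr2 of lean rat 2 set at background (exact two-sided permutation p = 1 for the measured values).

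Of the 3 genes of the lipopolysaccharide complex, 1 passed. Ly96 was at 5.88 and 5.77 in the obese rats, against 4.58 and 4.46 in the lean rats. The obese rats lay close together and well above the lean rats, and both lean rats were under the background level of their arrays. In lean rat 1 Ly96 stood at the 94.1st percentile of the background genes and in lean rat 2 at the 84.6th, which leaves the size of the rise uncertain. The SE and adjusted p of Ly96 were computed from these lean values. Setting the lean rats at their background level gives 1.82-fold in place of 2.47-fold, a value given without sampling error. With 1 rat left out the difference ran from 1.25 to 1.36, and whether the call depends on 1 rat cannot be read from such fits. The call was lost with quantile normalization between arrays (1.43, limma adjusted p = 0.053). It was also lost by eBayes with no variance trend (adjusted p = 0.070) and over all rows (adjusted p = 0.097).

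Tlr4, the signalling receptor of the complex, was at 7.44 and 7.78 in the obese rats, against 7.32 and 7.11 in the lean rats. The gap between the nearest rats of the groups was smaller than the gap within either group, and the difference of 0.40 ± 0.29 did not pass (limma adjusted p = 0.548). Cd14, the glycolipid-anchored protein that delivers lipopolysaccharide, was at 10.22 and 9.58 in the obese rats, against 10.08 and 9.41 in the lean rats. The groups overlapped, with rat 1 higher than rat 2 in both. The difference of 0.15 ± 0.38 (adjusted p = 0.885) turned to -0.18 without lean rat 2 and to -0.17 without obese rat 1. Within each array, Ly96 minus Tlr4 was -1.56 and -2.01 in the obese rats, against -2.75 and -2.64 in the lean rats. These lean values rest on Ly96 signal under background. With Ly96 set at the background level of each lean array they were -2.64 and -1.86, so the groups overlapped, and for Ly96 minus Cd14 they also overlapped.

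Tlr3, the endosomal receptor of double-stranded RNA, was at 7.50 and 7.71 in the obese rats, against 6.50 and 5.37 in the lean rats. Both obese rats were above both lean rats, and the obese rats differed from each other by less than the lean rats did, with an SD of 0.15 in the obese rats and 0.80 in the lean rats. The difference of 1.67 ± 0.39 missed the threshold (limma adjusted p = 0.110). It was 2.23 without lean rat 1, the array with muscle signal, 1.78 without obese rat 1 and 1.11 without lean rat 2. Its size thus depended on which lean rat was kept. By the size of its difference Tlr3 ranked 242 of 14506 genes.

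Tlr7, which recognises single-stranded RNA, was at 6.22 and 7.34 in the obese rats, against 6.34 and 5.90 in the lean rats. Obese rat 2 was higher than the other animals, while obese rat 1 lay between the lean rats. The difference of 0.66 ± 0.39 did not pass (limma adjusted p = 0.462), and leaving out obese rat 1 gave 1.22, leaving out obese rat 2 gave 0.10. Tlr3 minus Tlr7 within each array was 1.28 and 0.37 in the obese rats, against 0.16 and -0.52 in the lean rats. The obese values were again the higher ones, by a mean of 1.01 (exact two-sided permutation p = 0.333, the smallest this design allows).

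Myd88, the shared adaptor, was at 7.59 and 7.52 in the obese rats, against 7.04 and 7.28 in the lean rats. The groups did not overlap, and the difference of 0.39 ± 0.28 did not pass (limma adjusted p = 0.531). With any 1 rat left out it ran from 0.28 to 0.51.

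**Figure D1:**
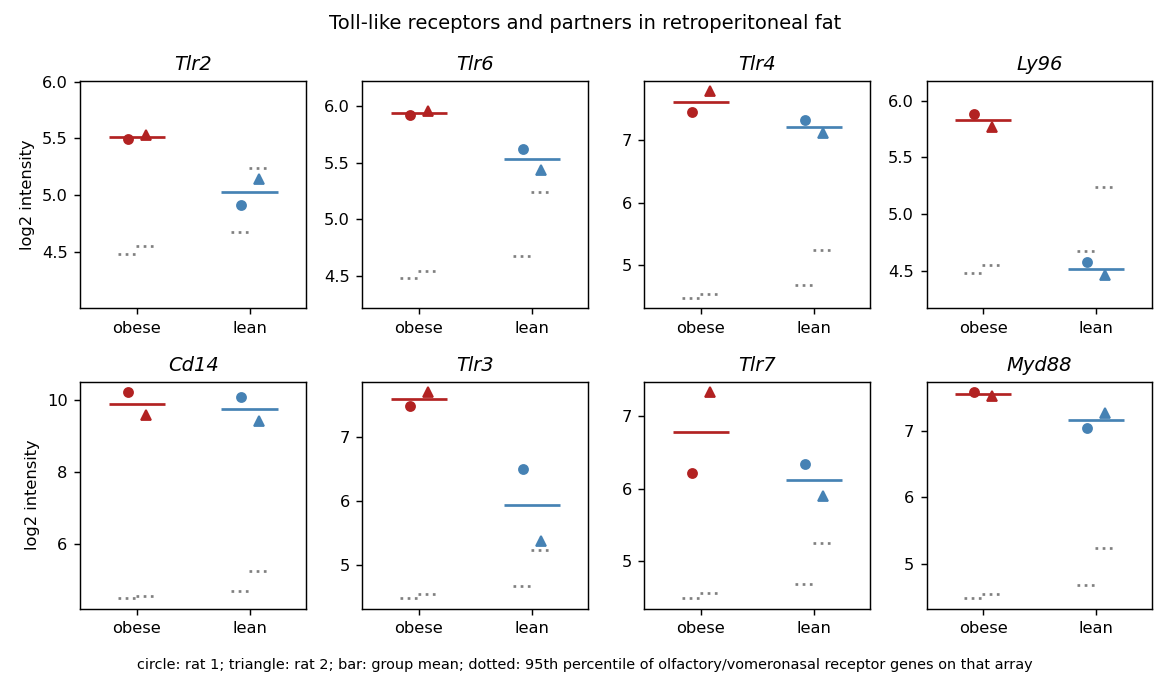
Log2 intensity of the 8 measured members in each rat, with obese rats on the left (red) and lean rats on the right (blue) of each panel, circles for rat 1, triangles for rat 2, bars for group means (n = 2) and dotted lines for the background level of each array. Ly96 lies above that level in both obese rats (5.88 and 5.77) and under it in both lean rats (4.58 and 4.46), and Tlr7 is high in obese rat 2 alone (7.34); vertical scales differ between panels.

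Over the 8 measured members, 1 rose, none fell and 7 did not pass. By the same test 0.841% of all genes were called, 0.772% as higher and 0.0689% as lower. At an unadjusted p under 0.05 there were 2 members, Ly96 and Tlr3, both higher, against 9.93% of all genes that were higher at that level. All 8 differences were above 0, as were 50.1% of all genes, and their median was 0.45, against 0.00047 over all genes. The obese rats both exceeded the lean rats for 6 members, a pattern seen in 26.4% of all genes, and the groups overlapped for Tlr7 and Cd14. All 8 differences stayed above 0 with lean rat 1 or obese rat 2 left out, and 7 did with lean rat 2 or obese rat 1 left out.

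**Figure D2:**
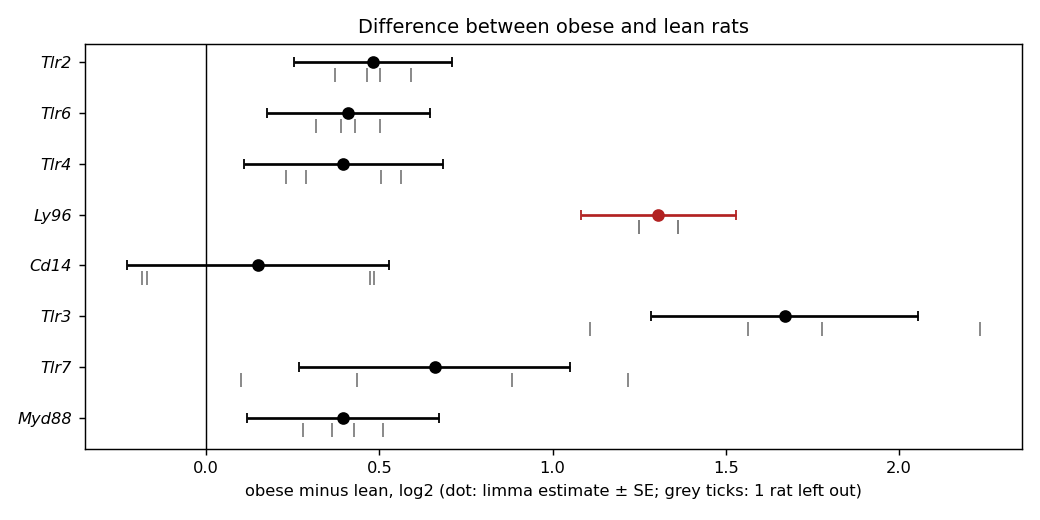
Obese minus lean difference of each member on the log2 scale, with dots for limma estimates, bars for SE (n = 2 per group), red for an adjusted p under 0.05 and grey ticks for the estimates with 1 rat left out. Ly96 (1.30) and Tlr3 (1.67) lie apart from the other members, and only the ticks of Cd14 fall on both sides of 0.

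Macrophages are the main immune cells that carry these receptors in fat. Among the macrophage markers, 8 of 20 rose, 12 did not pass and none fell, with a median difference of 1.73 and a range from -0.11 to 4.07, beside a median of 0.45 for the members. Their mean log2 level was 9.10 and 8.67 in the obese rats, against 7.00 and 7.21 in the lean rats. Of 8 markers shared by leukocytes, 2 rose, the actin-bundling protein gene Lcp1 (2.62) and the CD45 gene Ptprc (1.90), with a median of 1.44. The call of Ptprc was lost with quantile normalization (1.73, adjusted p = 0.067). Without lean rat 1 the medians were 1.56 for macrophage and 1.47 for leukocyte markers, and without obese rat 2 they were 2.04 and 1.73. In bulk tissue, more cells of a type and more RNA per cell cannot be told apart, and the part of macrophage content in the members' differences was not tested.

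The mean of the macrophage markers was 1.78 higher in the obese rats (8.89 against 7.10 in the lean rats), more than the difference of any member. Subtracting it from the members therefore places all 8 below 0 by arithmetic, and the relative levels serve only to set the members beside each other. The markers behind this mean were also unequal. The osteopontin gene Spp1, the lysozyme gene Lyz2, the glycoprotein gene Gpnmb and the integrin gene Itgb2 differed by 3.39 to 4.07. The complement genes C1qa, C1qb and C1qc and the scavenger receptors Cd163 and Marco lay between -0.11 and 0.49. On this relative scale the obese minus lean value was lowest for Cd14 (-1.63), with Tlr4 (-1.39), Myd88 (-1.39), Tlr6 (-1.37), Tlr2 (-1.30) and Tlr7 (-1.12) after it. Ly96 was at -0.48, or -0.92 with the lean rats set at their background level. For Tlr3 (-0.11) the relative level was -1.60 and -0.96 in the obese rats, against -0.50 and -1.84 in the lean rats, so the groups overlapped. These values are descriptions with no test.

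**Figure D3:**
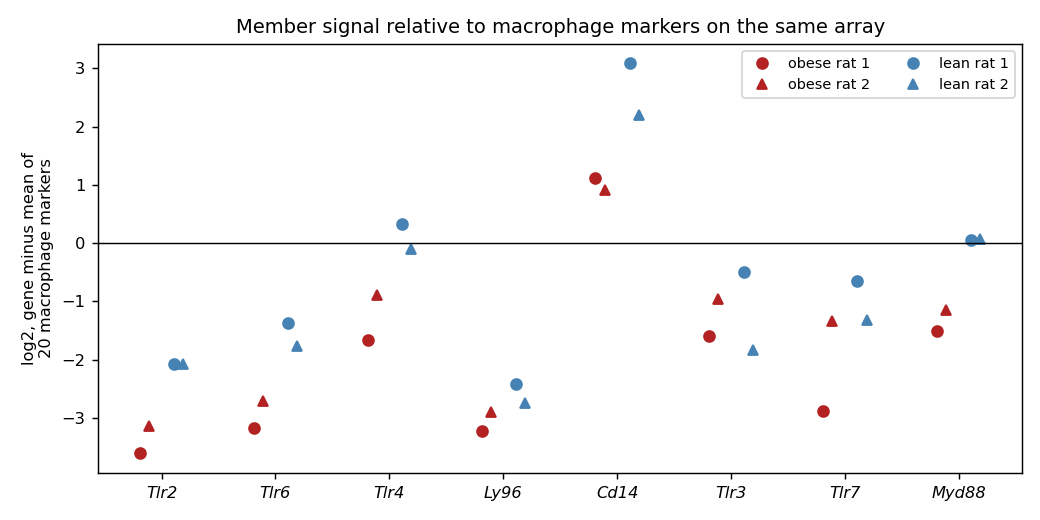
Log2 intensity of each member minus the mean of 20 macrophage markers on the same array, for obese rats (red, left) and lean rats (blue, right), circles for rat 1 and triangles for rat 2. Both obese rats lie below both lean rats for Tlr2, Tlr6, Tlr4, Ly96, Cd14, Tlr7 and Myd88, and the groups overlap for Tlr3; the marker mean itself is 1.78 higher in the obese rats.

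Markers of other cells that can carry these receptors did not pass in any list with all 4 rats. None of 9 neutrophil markers passed (median -0.01), and S100a8, Ltf and Ngp were under the background level in all 4 rats. None of 5 markers of B cells and plasmacytoid dendritic cells passed (median -0.18), with the B cell gene Ms4a1 under background throughout, and none of 6 of dendritic cells (median -0.11). None of 9 T and NK cell markers passed (median -0.02), and Cd3d, Cd3e, Klrb1 and Ncr1 were under background in all rats. None passed among 10 adipocyte genes (median 0.23), 8 of fibroblasts and progenitors (0.10), 6 of endothelium (-0.62), 5 of mesothelium (-0.83), 9 of skeletal muscle (-3.16) or 8 of mast cells and eosinophils (-0.15). At an unadjusted p under 0.05 limma gave 1 higher gene each among the B cell (Blnk), T and NK cell (Cd4), adipocyte (Lep) and fibroblast (Thy1) markers. In endothelium it gave 1 higher and 3 lower, in mesothelium and muscle 2 lower each, in mast cells and eosinophils 1 lower, and none among neutrophil or dendritic cell markers. The lower mast cell gene, Mcpt1, was under background in all 4 rats, so its difference carries little information. Ccr3 of that list and the dendritic cell gene Clec9a were also under background throughout. Cd4 (1.83) stood apart from the median of its list, so its difference is not one of the T and NK cell markers as a set. Blnk was under background in both lean rats. Some differences depended on which rat was left out. They ran from -1.58 to -0.075 for the adipocyte gene Cfd and from -1.52 to -0.86 for the endothelial gene Emcn. For Lep they ran from 1.05 to 2.06, for Cd4 from 1.30 to 2.36 and for Thy1 from 1.32 to 1.38. The mesothelial median lay between -1.32 and -0.47 in these fits. Dropping lean rat 1 moved the muscle median from -3.16 to -0.17, with 4 of the 9 markers above 0. Dropping lean rat 2 moved it to -6.02. The muscle difference thus came mainly from lean rat 1, and no fall in obese rats is read from it. Without lean rat 1 all 8 member differences stayed above 0, and the part of muscle content in them was not tested.

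The receptor Cd180 (RP105) and its partner Ly86 (MD-1) resemble Tlr4 and Ly96 in structure and modulate responses to lipopolysaccharide. Cd180 was at 6.83 and 7.14 in the obese rats, against 4.56 and 4.60 in the lean rats. The lean rats were both under background, so the size of the rise of 2.40 ± 0.24 (limma adjusted p = 0.011) is uncertain. With the lean rats set at their background level it was 4.07-fold, a value given without sampling error. Ly86 was at 8.94 and 8.92 in the obese rats, against 6.73 and 6.99 in the lean rats. Both obese rats lay about 2 units above the lean rats, and the rise was 2.07 ± 0.29 (adjusted p = 0.025), from 1.94 to 2.20 when 1 rat was left out. The call of Ly86 was lost with quantile normalization (limma adjusted p = 0.053). Within each array Cd180 minus Tlr4 was -0.61 and -0.64 in the obese rats, against -2.76 and -2.50 in the lean rats, a difference of 2.01. Because Cd180 was under background in the lean rats this is no exact value: with it set at background the lean values were -2.64 and -1.86, still below both obese rats, and the difference was 1.63.

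Unc93b1, the chaperone that carries the endosomal receptors out of the endoplasmic reticulum, was at 8.76 and 7.72 in the obese rats, against 5.99 and 6.00 in the lean rats. It rose by 2.25 ± 0.37 (limma adjusted p = 0.042), and by 1.73 to 2.77 when 1 rat was left out. The call was lost with quantile normalization (adjusted p = 0.077) and with median centring (adjusted p = 0.058). The obese rats differed from each other but both exceeded the lean rats by over 1 unit. Among accessory proteins and ligand carriers, 3 of 14 rose, 11 did not pass and none fell, with a median of 0.75. The median of this list was 0.97 without obese rat 2 and 0.64 without lean rat 2. The fatty acid transporter Cd36, an accessory receptor for Tlr2 with Tlr6, was at 0.76 (adjusted p = 0.350), and Lbp, the lipopolysaccharide-binding protein, at -0.43 (adjusted p = 0.495).

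**Figure D4:**
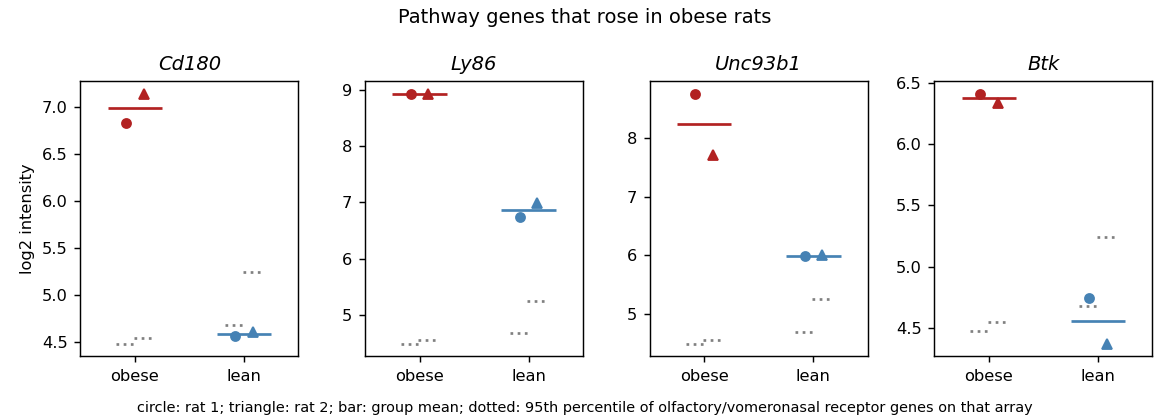
Log2 intensity of Cd180, Ly86, Unc93b1 and Btk in each rat, obese rats left (red) and lean rats right (blue), circles for rat 1, triangles for rat 2, bars for group means (n = 2) and dotted lines for the background level of each array. Both obese rats lie above both lean rats in every panel, and Cd180 is under background in the lean rats (4.56 and 4.60); vertical scales differ between panels.

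Among adaptors and proximal kinases, Btk, a tyrosine kinase of B cells and myeloid cells that binds Myd88, was at 6.41 and 6.34 in the obese rats, against 4.74 and 4.37 in the lean rats. It rose by 1.81 ± 0.24 (limma adjusted p = 0.025), and lean rat 2 was under background. Pik3ap1, an adaptor that links the receptors to phosphoinositide 3-kinase, was at 1.45 (adjusted p = 0.088), and at 1.77 without lean rat 1. In this list 1 of 16 genes rose, 15 did not pass and none fell, with a median of 0.33. That median was 0.30 without lean rat 1 and 0.37 without lean rat 2. The receptor-proximal kinases Irak1 (0.61) and Irak4 (0.28), the ubiquitin ligase Traf6 (0.57) and the inhibitory kinase Irak3 (-0.09) were among those that did not pass. Of 21 downstream kinases, NF-kB subunits and interferon regulatory factors, none passed by limma, and 2 were higher at an unadjusted p under 0.05. These were the NF-kB inhibitor gene Nfkbie (0.83, adjusted p = 0.242) and Irf5 (0.85, adjusted p = 0.281), a transcription factor that acts after Tlr7 and Myd88. The median of that list was 0.26, with Rela at -0.32, Nfkb1 at 0.46 and Irf7 at -0.07.

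Of 20 genes induced by Toll-like receptor signalling, none passed by limma, and 1 was higher and none lower at an unadjusted p under 0.05. That gene was the chemokine Ccl3 (0.69, adjusted p = 0.321). The neutrophil chemokine Cxcl1 was at -0.99 (adjusted p = 0.342), with 6.26 and 6.15 in the obese rats, against 6.47 and 7.94 in the lean rats. Without lean rat 1 Cxcl1 was at -1.73, and without lean rat 2 it was at -0.26. The list's median was -0.15 and 4 of its 20 genes were above 0. Without lean rat 2 the median was 0.20 and 14 were above 0. Without lean rat 1 the median was -0.36 and 3 were above 0. Il6, Il10, Il12b and Cxcl2 were under background in all rats, so their differences carry little information. Il1b, Ifnb1 and Acod1 were under background in both lean rats. Of the other Toll-like receptors, 2 were measured and none passed, also at an unadjusted p under 0.05: Tlr9, the receptor of unmethylated DNA, was at 0.26 (adjusted p = 0.670), and Tlr12, a receptor of a parasite protein in mice, at -0.07 (adjusted p = 0.939).

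**Figure D5:**
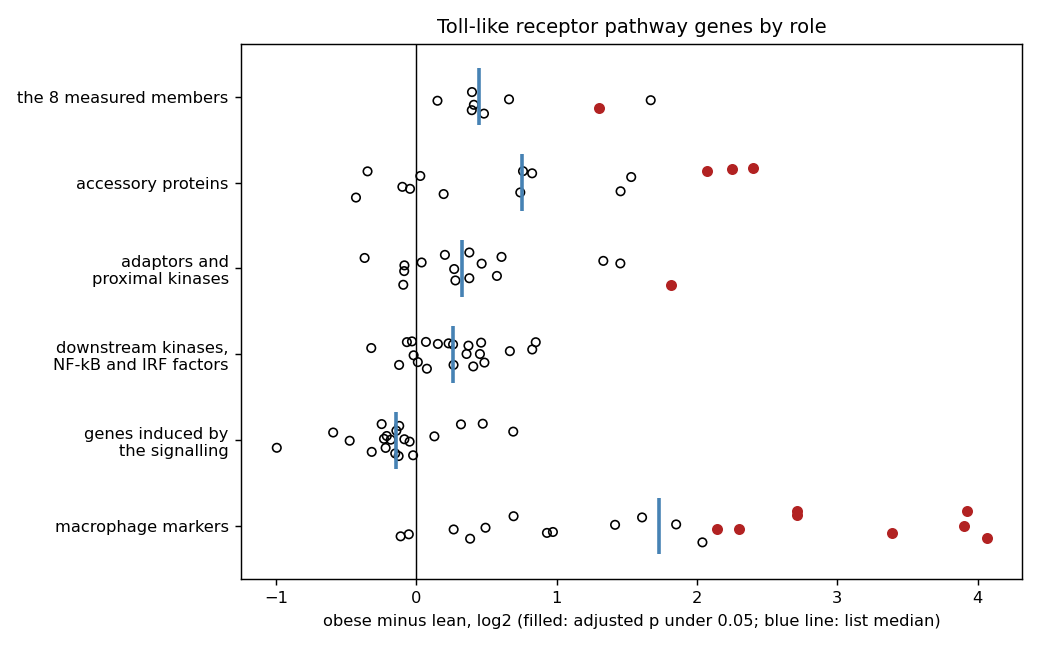
Obese minus lean difference on the log2 scale of each gene by role, with filled points for an adjusted p under 0.05 and blue lines for list medians. The called genes are 1 member, 3 accessory genes, 1 adaptor or kinase gene and 8 macrophage markers, and the median is 1.73 for macrophage markers, 0.45 for members and -0.15 for induced genes.

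The genes whose profile over the 4 arrays was closest to that of Ly96, by the root mean square distance of values centred per gene, were the kinase gene Lyn (0.028), the cytochrome P450 gene Cyp2b2 (0.037) and the surface glycoprotein gene Thy1 (0.039). Lyn was at 1.30, Cyp2b2 at 1.32 and Thy1 at 1.35, and none of these passed with all 4 rats (limma adjusted p = 0.088, 0.053 and 0.074). With 1 rat left out the difference ran from 1.21 to 1.39 for Lyn, 1.28 to 1.35 for Cyp2b2 and 1.32 to 1.38 for Thy1. Closest to Tlr3 were the coenzyme A synthesis gene Pank3 (0.108), the pyruvate dehydrogenase subunit gene Dlat (0.109) and the glycosyltransferase gene B4galt6 (0.115). None of these 3 genes passed with all 4 rats (limma adjusted p = 0.112, 0.150 and 0.106). They were lower in lean rat 2 than in lean rat 1, with Dlat at 9.34 and 9.40 in the obese rats, against 8.42 and 7.35 in the lean rats. The genes were picked by their likeness over these same 4 arrays, so a shared pattern follows from the choice. With 4 arrays such likeness is a description only.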

How the data were processed

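Gene expression was measured in fat of 2 obese and 2 lean rats. The authors deposited intensities on a linear scale; per the submitters' processing notes the tool was RMA. Its version and the array build are not given in the sources used. RMA normally includes quantile normalization, which reduces a shift common to most genes. The deposited values still differed between arrays, with a median over all rows of 39.9 in both obese rats, 41.0 in lean rat 1 and 44.5 in lean rat 2. Quantile normalization of these values changed the count of called genes from 122 to 75. The log2 of each intensity was taken, without a pseudocount. Rows with 1 symbol (15310 of 29214) were used, and for the 527 genes with several rows the one with the highest mean was kept, which gave 14506 genes. All genes were fitted together with limma 3.58.1 in R 4.3.3 (lmFit, eBayes with a mean-variance trend, 2 residual degrees of freedom before sharing), with Benjamini-Hochberg adjustment over the 14506 genes and a threshold of 0.05. Background was the 95th percentile of 188 olfactory and vomeronasal receptor genes per array, and detection calls were not used here. A fold with the lean rats set at background takes each lean array at the higher of that level and the gene's own value. It has no sampling error and depends on the percentile chosen.

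Members, lists and alternatives were chosen with earlier results of these data known, and no pattern already seen there is independent support. Named genes are all members and, per pathway list, up to 4 called genes or the 2 with the smallest p. Irak1, Irak4, Irak3, Traf6, Cd36, Lbp, Rela, Nfkb1, Irf7, the macrophage markers and the genes under background were named after their values were seen. Of marker lists, genes are named where a result turns on them. Promoters came from RefSeq (GRCr8) by symbol, and the NF-kB consensus was searched on both strands with overlaps counted. Rat numbers were not taken to pair animals: no label ties them, and deviations of the rats numbered 1 correlated at 0.02 across genes. A run on simulated data checked that most signs were recovered and that larger differences were called more often. It did not check the share of false calls. Figures were drawn with matplotlib 3.10.9.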

Additional observations from a re-analysis of the deposited data

How the results depend on the processing

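Of the 8 members, all stayed above 0 under the 8 alternatives that kept all 4 rats, with Cd14 as low as 0.00017 under quantile normalization, and only Cd14 turned when 1 rat was left out (-0.18 without lean rat 2, -0.17 without obese rat 1, and up to 0.48 without lean rat 1). The members called were 0 with quantile normalization, without the variance trend and over all rows of the table (limma, where 2 or 3 had an unadjusted p under 0.05). With the rat number as a replicate block 2 members were called, Ly96 and Tlr3 (limma adjusted p = 0.029 and 0.043), and 327 genes in all. The labels do not say whether the numbers tie the animals or their arrays. The pathway genes called numbered 4, and 2 with quantile normalization; with 3 rats they numbered 4 to 6. The count over all genes was 122, and 75 with quantile normalization, 262 with robust variances and 185 over all rows; with 3 rats it was 268 to 1081. The share of calls that were higher was 91.8%, and 84.7% with robust variances, 77.7% with the replicate block and 48.1% over all rows. Without a lean rat the spread comes from the obese rats alone, whose mean deviation was 0.131, against 0.230 in the lean rats. Without obese rat 1 the SE of Cd180 moved from 0.24 to 0.45. Calls with 3 rats are not given for this reason. Outside the members, the calls of Ly86 and Ptprc were lost with quantile normalization (adjusted p = 0.053 and 0.067), and that of Unc93b1 also without the lowest 25% of genes (adjusted p = 0.052) and over all rows (adjusted p = 0.077). Tlr12 turned to 0.033 with median centring and to 0.33 without lean rat 2 (-0.46 without lean rat 1), and the neutrophil gene Cxcr2 (-0.27) to 0.067 without lean rat 1 and to 0.016 without obese rat 1 (-0.60 without lean rat 2). Genes near 0 also turned with median centring: Irak3 to 0.013, Irf7 to 0.031 and Cd163 to 0.044, and Marco to 0.014 with quantile normalization. With 1 rat left out the range included 0 for Irak3 (-0.28 to 0.11), Irf7 (-0.36 to 0.22), Rela (-0.68 to 0.037), C1qa (-0.092 to 0.62), Cd163 (-0.41 to 0.30) and Marco (-0.26 to 0.038). Thy1 (adjusted p = 0.044) was called with robust variances, and Cyp2b2 under 4 settings with all 4 rats. The median of each pathway list, an alternative chosen after seeing the data, changed sign without lean rat 2 for the induced genes (0.20) and without lean rat 1 for the other Toll-like receptors (-0.19). Signal near background limits Ly96, Tlr2 and Cd180 in lean rats. The cause of these changes was not tested.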
